A study of Mus musculus with 13 samples.

Results

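The genes described here are those of the motile cilium and its axoneme in mouse lung. They were taken by symbol from the count table: the families Dnah, Dnai, Dnaaf, Cfap, Rsph and Tekt followed by a digit, plus Foxj1, Rfx3, Tppp3, Tubb4b, Hydin and Sntn. Of 32544 symbols, 63 met this rule, and 59 of them had at least 30 counts over the 13 libraries, the minimum for a test. The remaining 4 were Cfap73 with 5 counts, Cfap99 with 0, Rsph6a with 1 and Tekt3 with 19. The Dnah family had 15 rows, all of them tested, Dnaaf had 4 of 4, Cfap 23 of 25, Rsph 7 of 8 and Tekt 4 of 5. The table held 0 rows named Dnai, since it uses older symbols for those intermediate chains, and these are given below with the other axoneme genes.

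The study asked how mouse tissues respond to oxygen tension. Lungs came from male wild-type C57BL/6J mice, bought at 7 weeks of age and, per the methods, older when the experiments were done. The mice were kept for 5 days in normoxia (21% oxygen, 7 samples) or hyperoxia (80% oxygen, 6 samples). Lungs were perfused and frozen, and the RNA of the whole tissue was counted by Quant-seq, which reads the 3′ ends of mRNAs. The labels give these samples as separate lungs of a group without naming the animals, and p-values measure only the spread between them.

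Motile cilia beat on the multiciliated cells of the conducting airways and move mucus out of the lung. The core of a motile cilium, the axoneme, is a ring of microtubule doublets around a central pair. Outer and inner dynein arms on the doublets drive the beat, and radial spokes carry signals from the central pair to the arms. Foxj1 is the transcription factor that turns on the motile cilium program, and Rfx factors such as Rfx3 act on cilium genes through a promoter element called the X-box. In whole lung, multiciliated cells are a small share of the cells, and some members, such as Tubb4b, are used by other cells too. For transcripts of ciliated cells, fewer ciliated cells and less RNA per ciliated cell cannot be told apart here.

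Total counts ran from 1607111 to 3387736 in normoxia and from 2029006 to 4540288 in hyperoxia, so that 1 count was worth between 0.215 and 0.603 CPM. CPM here is a gene's count relative to the TMM-scaled total of its library. Between 55 and 61 of the 63 members had a count in each library. Hyperoxia 1 stood apart: its log2 CPM over all genes correlated with those of the other 12 libraries at r = 0.781 to 0.863, against 0.885 to 0.968 among these 12. Among the 59 members it was the highest hyperoxic library for 22, and Normoxia 6 was the highest normoxic one for 21. Hyperoxia 1 was the lowest of its group for 16, Hyperoxia 2 for 16 and Hyperoxia 3 for 17, so the lowest values were not particular to Hyperoxia 1. Without Hyperoxia 1 the log2 fold change of 11 of the 59 members moved by more than 0.2, and in 3, Dnaaf1, Cfap54 and Cfap69, it changed sign. Surfactant protein C (Sftpc), which marks alveolar type 2 cells, had a mean of 9500 ± 2790 CPM (SD, n = 7) in normoxia, and the labelled tissue was thus seen in its own marker.

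Of the 59 members, 6 were lower in hyperoxia at an adjusted p under 0.05 and 0 were higher (edgeR's quasi-likelihood test, adjusted over 14902 genes). The 6 were the dynein heavy chains Dnah8, Dnah5 and Dnah10, the radial spoke head gene Rsph1, the inner arm gene Cfap57 and the microtubule-binding protein gene Tppp3. They make 10.2% of the members, beside 8.9% of all genes called lower and 10.5% called higher (19.4% in either direction). The share of lower calls was therefore near that of all genes. The log2 fold change was below 0 in 39 members (66.1%), beside 52.2% of all genes, and above 0 in 20. Its median was −0.29 and its range −1.96 to 0.80, beside a median of −0.03 over all genes tested. At an unadjusted p under 0.05, 11 members were lower and 1, Cfap36, was higher, beside 15.6% and 16.6% of all genes. With library size alone as the scaling the members' median was −0.39 beside −0.13 for all genes, and with limma on the deposited log values it was −0.41 beside −0.17. These scalings also moved the share of higher calls among all called genes from 54.1% to 41.8% and 37.4%, while the count of members called higher was 0 under each. Leaving out Normoxia 6, Normoxia 7, Hyperoxia 3 or Hyperoxia 4 gave 3 lower members each, beside 7.31% to 8.6% of all genes, and leaving out Hyperoxia 1 gave 9, beside 11.7% of all genes.

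**Figure D1:**
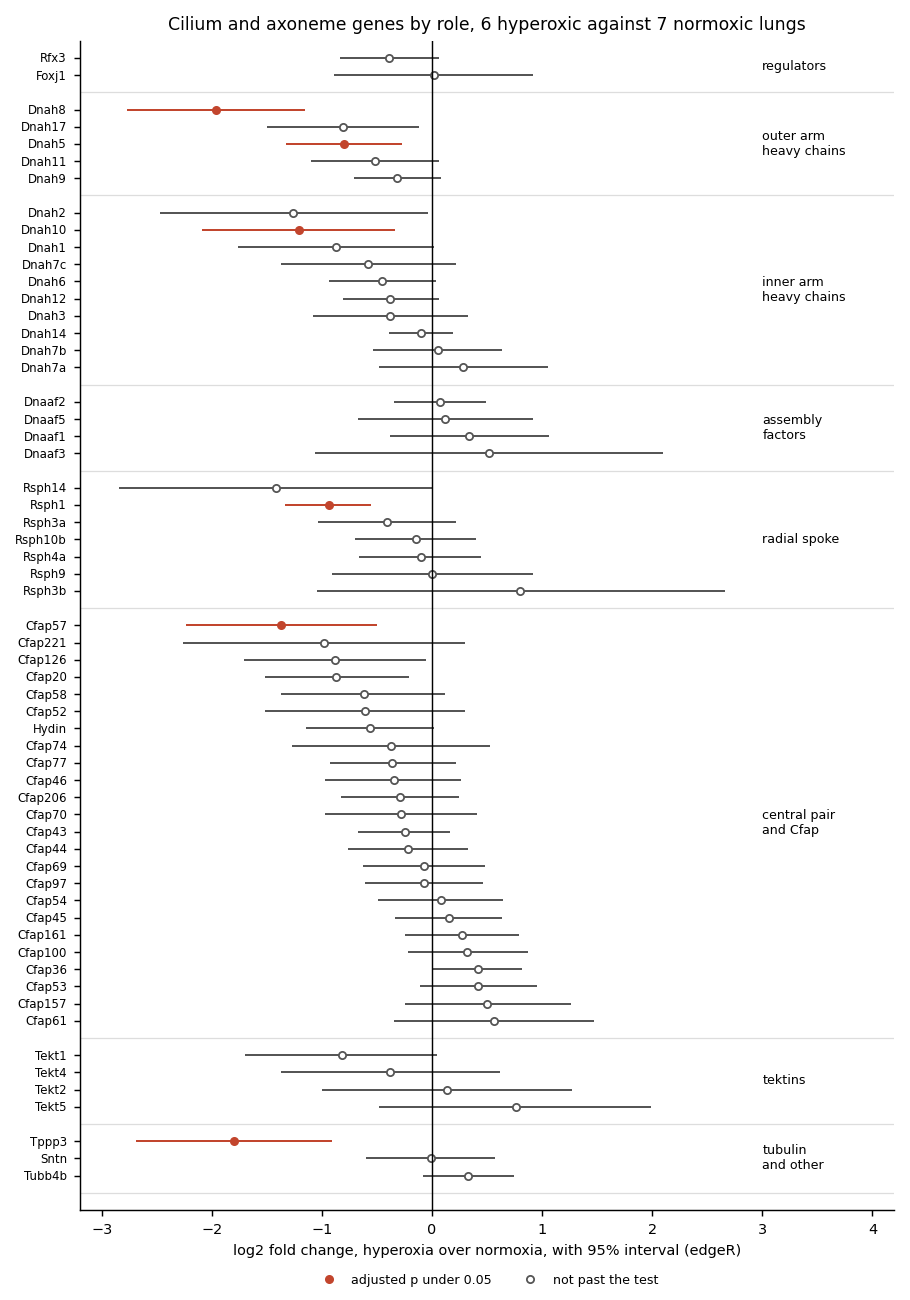
Log2 fold change of the 59 tested members, hyperoxia over normoxia, with its 95% interval, grouped by role on the vertical axis; filled red points passed the test and open points did not. The 6 that passed lie between −0.80 and −1.96, and all 5 outer arm heavy chains lie left of 0, as do 52.2% of all genes tested.

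All 5 outer arm heavy chains had a log2 fold change below 0, as had 52.2% of all genes. Of the 5, 2 (40%), Dnah8 and Dnah5, passed the test, beside 8.9% of all genes called lower. The median of the 5 was −0.80, and it was −0.90 with library size alone, −0.79 with limma on the deposited values and −0.87 without Hyperoxia 1. The summed level of these 5 genes ran from 80.3 to 147 CPM in normoxia, with a median of 107, and from 46.5 to 87.8 CPM in hyperoxia, with a median of 73.9. The ranges of the sum overlapped, because Normoxia 1 was at 80.3 CPM and 3 hyperoxic libraries were at 83.2, 84.0 and 87.8 CPM.

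Dnah5 encodes the outer arm heavy chain whose loss is a common cause of primary ciliary dyskinesia, a disease of immotile cilia. Its gene lies at chr15:28203752-28472052 on the plus strand (GRCm38, GENCODE M21), with no annotated gene overlapping it. In normoxia it ran from 29.7 to 69.7 CPM with a median of 54.9, and in hyperoxia from 13.8 to 39.5 CPM with a median of 33.6. Only Normoxia 1 lay within the hyperoxic range. The log2 fold change was −0.80 (SE 0.25, 95% interval −1.32 to −0.28, edgeR adjusted p = 0.0308). Without one library at a time it ran from −0.89 to −0.65 and the test was passed in 7 of 13 fits, the largest adjusted p being 0.0621 without Normoxia 6.

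Dnah8 is a close relative of Dnah5 best known from the sperm tail. Its levels were low, from 2.40 to 7.16 CPM in normoxia with a median of 6.03 and from 0.556 to 2.15 CPM in hyperoxia with a median of 1.23. The groups did not overlap, which held in the lower direction for 4.33% of all genes tested and in the higher direction for 5.19%. These levels rest on 7 to 26 counts per normoxic library and 1 to 10 per hyperoxic library. The log2 fold change of −1.96 (SE 0.38, 95% interval −2.76 to −1.16, edgeR adjusted p = 0.0016) was the most negative among the members, and the test was passed in all 13 fits without one library. The gene, at chr17:30624354-30877365 on the plus strand, overlaps 7 genes on the other strand, among them Glo1. Glo1 had a mean of 46.5 ± 9.14 CPM in normoxia (SD, n = 7) and 38.4 ± 6.54 CPM in hyperoxia (n = 6), with a log2 fold change of −0.27 (edgeR adjusted p = 0.287). Whether reads were assigned by strand is not given in the sources used here, so reads of Dnah8 and of these partners cannot be told apart with certainty.

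The other outer arm chains did not pass the test. Dnah9 and Dnah11 are the partner heavy chains of Dnah5 in airway cilia, and Dnah17 is their relative in sperm. Dnah9 had a log2 fold change of −0.32 (95% interval −0.70 to 0.07), Dnah11 of −0.52 (−1.09 to 0.05) and Dnah17 of −0.81 (−1.49 to −0.13, edgeR adjusted p = 0.0917). Differences between the chains were not tested.

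Among the 10 inner arm heavy chains, 1 (Dnah10) passed the test, which is 10%, beside 8.9% of all genes called lower. In 8 (80%) the log2 fold change was below 0, beside 52.2% of all genes, and the median was −0.41. Dnah10 and Dnah2 are the heavy chains of the only inner arm with a pair of heads. Dnah10, at chr5:124725085-124834308 on the plus strand and overlapped by Gm43777 on the other strand, ran from 5.68 to 10.9 CPM in normoxia with a median of 7.43 and from 0.356 to 6.24 CPM in hyperoxia with a median of 3.21. The groups overlapped only through Normoxia 4 (5.68 CPM) and Hyperoxia 6 (6.24 CPM). Its log2 fold change was −1.21 (SE 0.41, 95% interval −2.08 to −0.35, edgeR adjusted p = 0.0474), close to the threshold, and it passed in 3 of 13 fits without one library. Dnah2 had a like value of −1.26 with a wider interval (−2.46 to −0.05, edgeR adjusted p = 0.138), and Normoxia 5 had 0 counts of it. Without Normoxia 5 it was at −1.44 and past the test (edgeR adjusted p = 0.0489).

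The single-headed inner arm chains included the best covered dynein gene. Dnah14 ran from 105 to 123 CPM in normoxia and from 86.3 to 141 CPM in hyperoxia, with a log2 fold change of −0.10 (SE 0.13). Its 95% interval, −0.38 to 0.18, was the narrowest among the dynein heavy chains. Dnah14 overlaps Lbr on the other strand, so its counts carry the same uncertainty as those of Dnah8. Dnah12 ran from 43.3 to 83.2 CPM in normoxia with a median of 55.3 and from 28.3 to 58.9 CPM in hyperoxia with a median of 49.5, a log2 fold change of −0.38 (SE 0.20, 95% interval −0.80 to 0.05, edgeR adjusted p = 0.211). With the length and GC correction it was at −0.44 and past the test (edgeR adjusted p = 0.0463). Of the remaining chains, Dnah1 was at −0.87, Dnah7c at −0.58, Dnah6 at −0.45, Dnah3 at −0.38, Dnah7b at 0.05 and Dnah7a at 0.28, none past the test. Dnah7a, Dnah7b and Dnah7c are near-identical copies, and kallisto could divide shared reads among them.

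**Figure D2:**
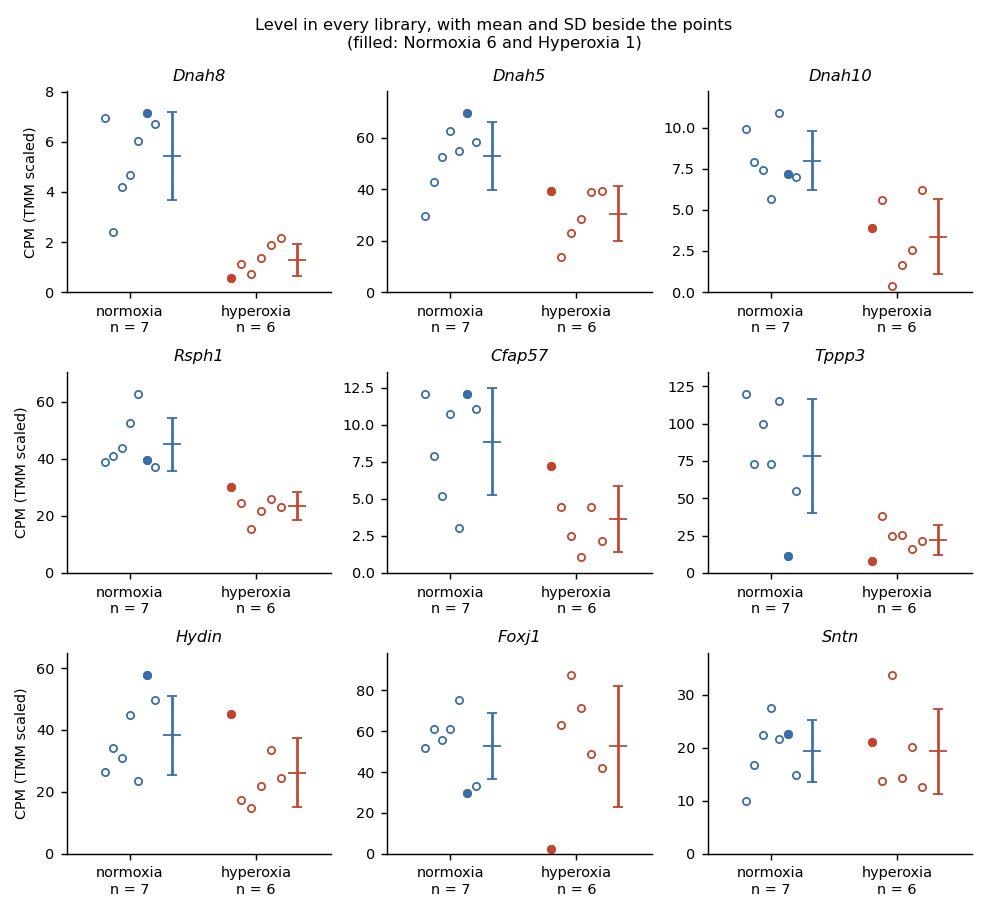
Level of 9 members in every library, in TMM-scaled CPM on linear axes from 0, with the mean and SD of each group beside its points (n = 7 normoxic, blue, and n = 6 hyperoxic, red); filled points are Normoxia 6 and Hyperoxia 1. The groups are apart for Dnah8 and Rsph1, Tppp3 is at 11.3 CPM in Normoxia 6, and Foxj1 is at 2.22 CPM in Hyperoxia 1.

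Dynein arms are put together in the cytoplasm by assembly factors before they enter the cilium. None of the 4 Dnaaf genes passed the test, and their log2 fold changes were 0.07 for Dnaaf2, 0.12 for Dnaaf5, 0.34 for Dnaaf1 and 0.52 for Dnaaf3. Under the scaling by library size, and in the limma fit of the deposited values, 1 of the 4 turned below 0. Dnaaf2 ran from 14.3 to 26.5 CPM in normoxia with a median of 20.8 and from 16.0 to 26.3 CPM in hyperoxia with a median of 22.1, and its interval was −0.34 to 0.48. Dnaaf1 ran from 9.16 to 18.4 CPM in normoxia with a median of 13.2 and from 10.3 to 43.4 CPM in hyperoxia with a median of 11.3. The value of 43.4 CPM belonged to Hyperoxia 1, and the next highest hyperoxic library was at 13.8 CPM. Without Hyperoxia 1 the log2 fold change of Dnaaf1 was −0.17 in place of 0.34.

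Of the 7 tested radial spoke genes, 1 (14.3%), Rsph1, passed the test and was lower in hyperoxia, beside 8.9% of all genes called lower. Rsph1 encodes a protein of the spoke head, which faces the central pair. It ran from 37.1 to 62.8 CPM in normoxia with a median of 40.9 and from 15.3 to 30.0 CPM in hyperoxia with a median of 23.8. Every hyperoxic library was below every normoxic one, as for Dnah8 and for no other member. That makes 2 of the 59 members, beside 4.33% of all genes tested. The log2 fold change of Rsph1 was −0.94 (SE 0.18, 95% interval −1.33 to −0.56, edgeR adjusted p = 0.00169). It ran from −1.02 to −0.83 in the 13 fits without 1 library, all past the test. The gene lies at chr17:31255019-31277383 on the minus strand and overlaps AC154652.1 on the other strand.

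The partners of Rsph1 in the spoke head were nearer to 0. Rsph4a had a log2 fold change of −0.10 (95% interval −0.65 to 0.44, and −0.26 without Hyperoxia 1) and Rsph9 of 0.00 (−0.90 to 0.91). Rsph3a, a spoke stalk gene with a near-identical copy in Rsph3b, ran from 55.4 to 95.3 CPM in normoxia with a median of 60.5 and from 14.5 to 97.1 CPM in hyperoxia with a median of 53.6. Hyperoxia 1 was its lowest library and Hyperoxia 3 its highest, and the log2 fold change of −0.41 (SE 0.29, 95% interval −1.03 to 0.21, edgeR adjusted p = 0.372) was −0.22 without Hyperoxia 1. Rsph10b was at −0.15, Rsph14 at −1.42 and Rsph3b at 0.80, the latter pair from only 50 and 39 counts over all libraries.

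Among Hydin and the 23 tested Cfap genes, 1 (4.17%) passed the test, beside 8.9% of all genes called lower. This was Cfap57, which takes part in the placing of inner arms. The median of the 24 genes was −0.27, with 16 (66.7%) below 0, beside 52.2% of all genes. Cfap57, at chr4:118554551-118620777 on the minus strand with no overlapping gene, ran from 3.02 to 12.1 CPM in normoxia with a median of 10.7 and from 1.08 to 7.23 CPM in hyperoxia with a median of 3.46. Normoxia 3 and Normoxia 5 lay within the hyperoxic range, whose highest library was Hyperoxia 1. The log2 fold change was −1.37 (SE 0.41, 95% interval −2.23 to −0.51, edgeR adjusted p = 0.0262), and it passed in 7 of 13 fits without one library.

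Hydin, a very large protein of a central pair projection, showed how much a single library could weigh. It ran from 23.5 to 57.9 CPM in normoxia with a median of 34.3 and from 14.9 to 45 CPM in hyperoxia with a median of 23.2, the highest being Hyperoxia 1. Its log2 fold change was −0.56 (SE 0.27, 95% interval −1.14 to 0.01, edgeR adjusted p = 0.164). Without Hyperoxia 1 it was −0.78 and passed the test (edgeR adjusted p = 0.0302). Cfap74, a further central pair gene, likewise rested on that library, with a log2 fold change of −0.37 that became −1.02 without Hyperoxia 1 (edgeR adjusted p = 0.0178), where it stood at 58.4 CPM. The other central pair genes Cfap46, Cfap54 and Cfap221 had log2 fold changes of −0.35, 0.08 and −0.98, none past the test.

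The Cfap genes with the most counts did not pass the test. Cfap36 ran from 52.5 to 79.6 CPM in normoxia with a median of 62.8 and from 66.3 to 142 CPM in hyperoxia with a median of 74.9, a log2 fold change of 0.42 (SE 0.19, 95% interval 0.02 to 0.81, edgeR adjusted p = 0.134). Its highest library was Hyperoxia 3, and without it the log2 fold change was 0.23. Cfap43, which with Cfap44 tethers an inner arm to the doublet, ran from 46.0 to 78.0 CPM in normoxia with a median of 52.7 and from 32.0 to 68.4 CPM in hyperoxia with a median of 47.0. Its log2 fold change was −0.25 (SE 0.19, 95% interval −0.66 to 0.15, edgeR adjusted p = 0.399), and Cfap44 was at −0.22.

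Proteins inside the doublets were mixed in direction. Cfap20 was at −0.87 (95% interval −1.51 to −0.22, edgeR adjusted p = 0.0581), just outside the threshold, Cfap126 at −0.88, Cfap52 at −0.61, Cfap45 at 0.15, Cfap161 at 0.27 and Cfap53 at 0.42. Without Hyperoxia 2, the highest hyperoxic library for it at 17.9 CPM, Cfap126 was at −1.30 and past the test (edgeR adjusted p = 0.018). Cfap20 had its lowest value, 2.78 CPM, in Hyperoxia 1, and without that library it was at −0.67 and past the test (edgeR adjusted p = 0.023). It also passed without Hyperoxia 2 (edgeR adjusted p = 0.0329), with DESeq2 (adjusted p = 0.0217), when scaled by library size (edgeR adjusted p = 0.0481) and after correction for length and GC (edgeR adjusted p = 0.0366). The limma fit of the deposited values called it too (adjusted p = 0.0426). Cfap20 did not pass with limma-voom, without the count filter or when blocked by replicate number. Allowing for the library letters described below, its value was 0.0941 (adjusted p, edgeR). Within B to M alone this was 0.208, and within O to S alone 0.195. Leaving out any single library other than Hyperoxia 1 or Hyperoxia 2 did not bring Cfap20 past the test. Of the rest, Cfap58 was at −0.62, Cfap77 at −0.36, Cfap206 at −0.29, Cfap70 at −0.28, Cfap69 and Cfap97 at −0.07, Cfap100 at 0.32, Cfap157 at 0.50 and Cfap61 at 0.56. None of these passed the test. Without Hyperoxia 1, Cfap46 and Cfap77 were at −0.55, Cfap52 at −0.39, Cfap44 at −0.37, Cfap97 at −0.33, Cfap54 at −0.04, Cfap69 at 0.01, Cfap100 at 0.09 and Cfap161 at 0.12. Outside the Cfap genes, the same step moved Dnaaf5 to 0.25, Dnah7a to 0.13, Rsph9 to 0.15 and Tekt2 to 0.02.

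**Figure D3:**
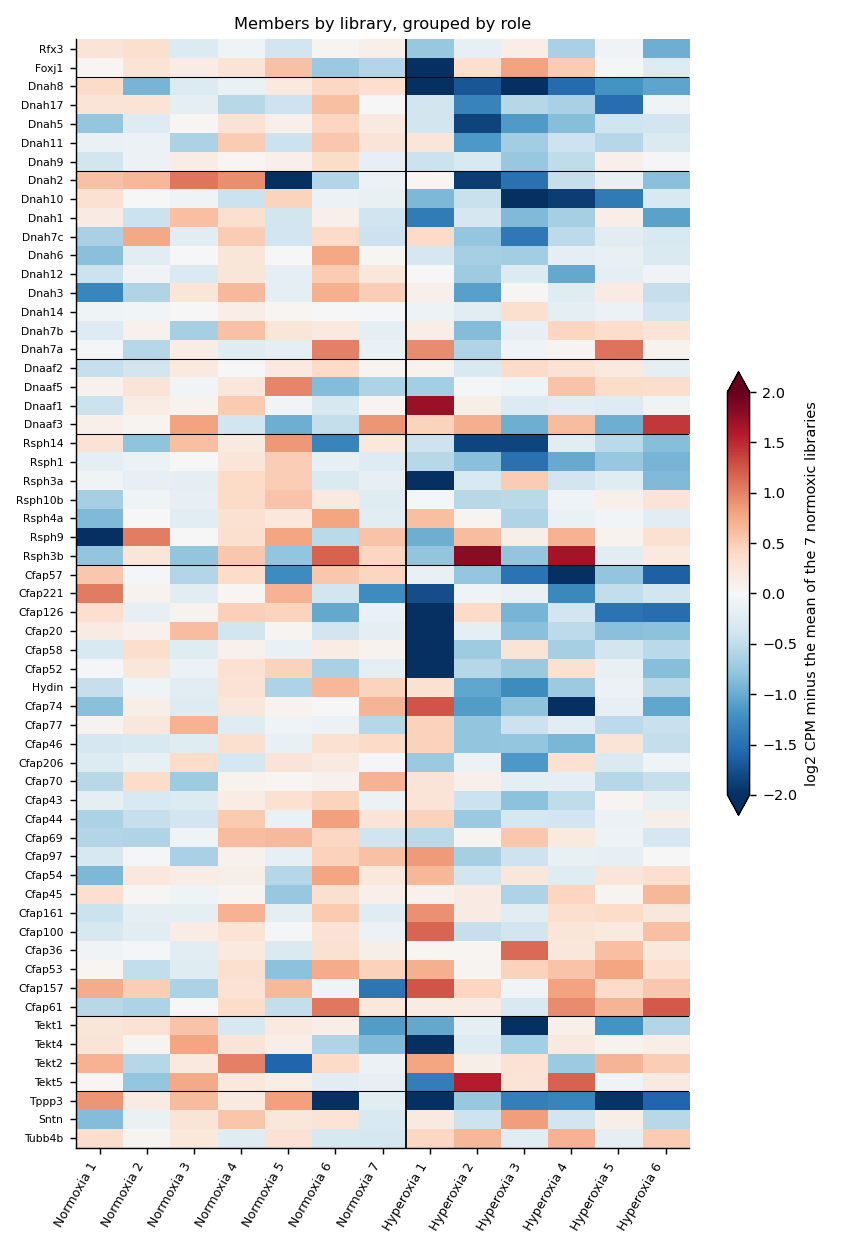
Log2 CPM of each tested member (rows, grouped by role) in each of the 13 libraries (columns), as the difference from the mean of the 7 normoxic libraries; blue is lower, red is higher, and the scale ends at 2 in either direction. Dnah8, Rsph1 and Tppp3 are blue in every hyperoxic library, while Hyperoxia 1 holds both the deepest blue and several of the strongest red cells.

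Tektins form filaments inside the doublets, and none of the 4 tested passed. Tekt1 ran from 2.05 to 8.07 CPM in normoxia with a median of 6.03 and from 0.711 to 5.65 CPM in hyperoxia with a median of 2.73, a log2 fold change of −0.82 (SE 0.41, 95% interval −1.69 to 0.04, edgeR adjusted p = 0.175). Tekt4 ran from 1.46 to 6.14 CPM in normoxia with a median of 3.62 and from 0 to 3.77 CPM in hyperoxia with a median of 3.04, a log2 fold change of −0.38 (SE 0.47, 95% interval −1.36 to 0.61, edgeR adjusted p = 0.623). The groups overlapped for both, and the count of 0 for Tekt4 was in Hyperoxia 1, without which it was at −0.17. Tekt2 was at 0.14 and Tekt5 at 0.76, with intervals that reached past 1 log2 unit on the upper side.

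Tppp3, which binds and bundles microtubules and is widely used to mark ciliated airway cells, was lower in hyperoxia. It ran from 11.3 to 120 CPM in normoxia with a median of 73.2 and from 7.78 to 38.0 CPM in hyperoxia with a median of 22.8. The other 6 normoxic libraries were at 55.0 CPM or more, above every hyperoxic library, and Normoxia 6 alone lay within the hyperoxic range. Its log2 fold change was −1.80 (SE 0.42, 95% interval −2.68 to −0.92, edgeR adjusted p = 0.00601), and it ran from −2.01 to −1.64 without one library at a time, past the test in all 13 fits. The gene lies at chr8:105467493-105471526 on the minus strand, and no other annotated gene overlaps it.

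Sntn and Tubb4b, described with Tppp3 by role, did not pass the test. Sntn encodes sentan, a protein of the ciliary tip. It ran from 9.90 to 27.4 CPM in normoxia with a median of 21.7 and from 12.5 to 33.8 CPM in hyperoxia with a median of 17.3, a log2 fold change of −0.01 (SE 0.27, 95% interval −0.59 to 0.56, edgeR adjusted p = 0.979). Tubb4b, the main beta-tubulin of cilia but also a tubulin of other cells, ran from 80.1 to 130 CPM in normoxia with a median of 105 and from 86.4 to 165 CPM in hyperoxia with a median of 140. Its log2 fold change was 0.33 (SE 0.19, 95% interval −0.07 to 0.74, edgeR adjusted p = 0.245), and its reads may be shared with other tubulin genes.

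The regulators Foxj1 and Rfx3 did not pass the test either. Foxj1 ran from 29.8 to 75.4 CPM in normoxia with a median of 55.5 and from 2.22 to 87.8 CPM in hyperoxia with a median of 56.2. Hyperoxia 1 was at 2.22 CPM, and the other 5 hyperoxic libraries lay between 42.0 and 87.8 CPM. The log2 fold change was 0.02 (SE 0.42, 95% interval −0.88 to 0.91, edgeR adjusted p = 0.983), 0.26 without Hyperoxia 1 and −0.54 with limma on the deposited log values, so that its sign depended on the setting. Rfx3 ran from 23.5 to 38.5 CPM in normoxia with a median of 32.0 and from 15.3 to 33.8 CPM in hyperoxia with a median of 23.3, a log2 fold change of −0.39 (SE 0.21, 95% interval −0.83 to 0.05, edgeR adjusted p = 0.206). A change of 1 log2 unit in either direction lay outside the intervals of both genes.

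The promoters of the members were searched for the letters of the elements that Rfx and forkhead factors recognise, and the matches are shown to give those letters in place. They are letter matches only, and binding was not measured. RefSeq promoters (GRCm38.p6, from 250 bases before the gene's start to 50 after it) were found for 51 of the 63 members and searched on both strands. The X-box was searched as GTNNCC followed by any 2 bases and GGNAAC, and the forkhead element as TGTTTAC. The X-box letters were present in 3 of 51 members (5.88%) and in 403 of 27025 promoters (1.49%). The forkhead letters were present in 5 of 51 members (9.80%) and in 1095 of 27025 promoters (4.05%). The share with the X-box letters was 22.6% of the transport and basal body genes described below, 16.7% of the multiciliogenesis genes, 15% of the other axoneme genes and 10% of the ciliated cell markers, each above that of the members. Other lists ran both ways for the forkhead letters, with 2.5% of the other axoneme genes, 0 of the 31 promoters of the transport and basal body genes, 28.6% of the alveolar type 2 markers (2 of 7) and 12.5% of the alveolar type 1 markers (1 of 8). No member's promoter held both. Of the 6 members lower in hyperoxia, 4 had a promoter to search (Cfap57, Dnah5, Dnah8 and Dnah10), and 0 of these matched. The capitals mark the match in each line, printed along the gene's own strand.
Cfap206, X-box, chr4:34730208-34730237: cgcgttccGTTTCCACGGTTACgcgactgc
Dnaaf5, X-box, chr5:139150209-139150238: tagcgccgGTTCCCTTGGAGACaggcaacg
Tekt4, X-box, chr17:25471422-25471451: ccccacctGTGTCCTGGGAAACaaactcat
Cfap20, forkhead, chr8:95435037-95435059: caggcactGTAAACAcgtgaggt
Cfap43, forkhead, chr19:47837402-47837424: atacaggtGTAAACAgtggcatc
Dnah17, forkhead, chr11:118129406-118129428: gggtacccTGTTTACctgatgac
Sntn, forkhead, chr14:13670632-13670654: ccattccaGTAAACAtactgaga
Tekt3, forkhead, chr11:63061477-63061499: attatttgTGTTTACtgaaaact

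The 53 members that did not pass the test differed in how closely they were measured. For 28 of them the 95% interval lay within 1 log2 unit on either side of 0, among them Foxj1, Sntn, Rfx3, Dnah9, Dnah12, Dnah14, Rsph4a and Cfap43. For the other 25 it reached past 1 log2 unit on at least one side, among them Dnah2, Rsph14, Hydin and all 4 tektins.

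The libraries carried names with letters from B to M for 5 normoxic and 3 hyperoxic samples and from O to S for 2 and 3, and what the letters stand for is not given in the labels. Within B to M alone 2 members were lower, Dnah8 and Tppp3, beside 2.76% of all genes, and within O to S 7 were, beside 8.41% of all genes. The 7 were Dnah8, Rsph1, Dnah5, Cfap57, Hydin, Dnah11 and Cfap97. Hydin, Dnah11 and Cfap97, not called in the main fit, were at −1.03, −0.87 and −0.65 in O to S (edgeR adjusted p = 0.0129, 0.0455 and 0.021). In B to M they were at −0.30, −0.32 and 0.31. Dnah8 had a log2 fold change of −2.47 in the first set and −1.93 in the second, past the test in both (edgeR adjusted p = 0.0339 and 0.0183). Rsph1 had −1.01 and −0.72 (edgeR adjusted p = 0.0614 and 0.0309), and Dnah5 had −0.91 and −0.86 (0.157 and 0.0175). Tppp3 had −1.99 (edgeR adjusted p = 0.0184) in B to M and −0.66 (0.396) in O to S, the set of Normoxia 6. Cfap57 had −0.74 and −2.22 (edgeR adjusted p = 0.433 and 0.0154), and Dnah10 had −1.32 and −0.99 (0.213 and 0.229). Among members not past the test, Tekt4 turned sign, from −1.40 to 1.07 (edgeR adjusted p = 0.226 and 0.181). Foxj1 did so too, from −0.22 to 0.77 (edgeR adjusted p = 0.864 and 0.0587). The differences between the sets were not tested.

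Further genes of the axoneme, which do not share these family names, were read from a list in the same fit. Of 53 listed, 51 were tested, 4 were lower, 1 was higher, 34 (66.7%) had a log2 fold change below 0, and the median was −0.14. The 4 lower make 7.84% of the list, beside 8.9% of all genes called lower, and 52.2% of all genes were below 0, so that the share of lower calls did not exceed that of all genes. Without Hyperoxia 1 the list had a median of −0.24, with 8 lower and 1 higher, beside 11.7% of all genes lower and 13.1% higher. Without Normoxia 1 or Hyperoxia 4 it had 3 past the test in all, beside 2369 and 2466 of all 14902 genes tested. Ttc25, which docks outer arms to the doublet, ran from 56.5 to 71.4 CPM in normoxia with a median of 61.2 and from 40.0 to 51.0 CPM in hyperoxia with a median of 43.3. Its groups did not overlap, and its log2 fold change was −0.50 (SE 0.13, edgeR adjusted p = 0.0101). Iqca, of the nexin-dynein regulatory complex, was at −1.10 (SE 0.22, edgeR adjusted p = 0.00224) and the central pair kinesin Kif9 at −0.89 (SE 0.26, edgeR adjusted p = 0.0244). Iqcd, the other gene called lower, rested on 35 counts over all libraries, with a mean of 1.51 ± 1.08 CPM in normoxia (SD, n = 7) and 0.264 ± 0.243 CPM in hyperoxia (n = 6).

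Nme7, an inner protein of the doublet also found at the centrosome, was the gene called higher, with a log2 fold change of 1.02 (SE 0.30, edgeR adjusted p = 0.0251). It ran from 229 to 452 CPM in normoxia and from 373 to 1340 CPM in hyperoxia, where Hyperoxia 1 was at 1340 and Hyperoxia 3 at 995 CPM and the other 4 libraries were at 442 CPM or less. Without Hyperoxia 1 it was at 0.68 (edgeR adjusted p = 0.0433). The dynein intermediate chains that the table names Dnaic1, Dnaic2, Wdr63 and Wdr78 had log2 fold changes of −1.41, −0.96, −0.09 and 0.23, none past the test. Ccdc114, of the docking complex, was at −0.28 and Spef2, of the central pair, at 0.26, which was 0.13 without Hyperoxia 1.

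Other parts of ciliary biology were read from lists in the same fit. Of 12 tested genes of multiciliated cell commitment and centriole amplification, 2 (16.7%) were lower and 0 higher, with a median of −0.37, beside 8.9% of all genes lower. These were Ccno, with means of 2.15 ± 0.422 CPM in normoxia and 0.471 ± 0.58 CPM in hyperoxia (edgeR adjusted p = 0.0182), and Gmnc, with 2.30 ± 1.39 and 0.644 ± 0.38 CPM (edgeR adjusted p = 0.0391), each SD over n = 7 and n = 6. Gmnc is an early switch of the multiciliated fate and Ccno acts in centriole amplification, and both were near the level of single counts in hyperoxia. Of 35 genes of intraflagellar transport and the basal body, which non-motile cilia use too, 1 (2.86%) was lower and 0 higher, with a median of −0.15, beside 8.9% of all genes lower. Without Hyperoxia 1, 3 of the 35 were lower, beside 11.7% of all genes. That gene, Ift20, which also serves at the Golgi, ran from 266 to 363 CPM in normoxia and from 161 to 228 CPM in hyperoxia with no overlap (log2 fold change −0.73, SE 0.13, edgeR adjusted p = 0.000964).

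Airway ciliated cells have further marker genes that the rule on symbols did not take. Of 35 tested, 7 were lower and 0 higher, beside 8.9% of all genes lower. In 26 (74.3%) the log2 fold change was below 0, beside 52.2% of all genes, and the median was −0.34. Without Hyperoxia 1, 11 of the 35 were lower, beside 11.7% of all genes. Lrrc23, of the radial spoke, ran from 6.87 to 14.7 CPM in normoxia and from 0 to 4.74 CPM in hyperoxia with no overlap (log2 fold change −2.33, SE 0.44, edgeR adjusted p = 0.00136). Ccdc153 was at −1.22 (edgeR adjusted p = 0.00383) and Fam183b at −1.09 (edgeR adjusted p = 0.00859), and the most abundant gene of the list, Sec14l3, was at −0.23 (95% interval −0.62 to 0.16). Without Hyperoxia 1, where it stood at 2230 CPM, Sec14l3 was at −0.45 and past the test (edgeR adjusted p = 0.012). The summed level of this list ran from 1840 to 2730 CPM in normoxia, with a median of 2080, and from 1410 to 2760 CPM in hyperoxia, with a median of 1640. The highest hyperoxic value was that of Hyperoxia 1, and Sec14l3 made most of the sum.

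Markers of other epithelial cells of the lung were read in the same fit, where 8.9% of all genes were lower and 10.5% higher. Of 13 club cell markers 5 were lower and 0 higher, and without Hyperoxia 1 the counts were 7 and 1, beside 11.7% and 13.1% of all genes. In 4 of the 13 the groups did not overlap, beside 4.33% of all genes in that direction. Their summed level ran from 15700 to 54500 CPM in normoxia and from 1070 to 12000 CPM in hyperoxia, with no overlap, and Scgb1a1 made most of this sum in normoxia. Scgb1a1, the main secretory protein of club cells, had a log2 fold change of −2.95 (SE 0.57, edgeR adjusted p = 0.00164) and was lowest in Hyperoxia 1, at 168 CPM, without which it was at −2.69. Of 10 alveolar type 2 markers 7 were lower and 0 higher, and of 10 alveolar type 1 markers 1 was lower and 1 higher, with a median of 0.05. Of 12 basal and goblet cell markers 8 were tested, and 3 of these were lower and 0 higher, with a median of −1.40. The basal cell genes Krt5, Krt14 and Trp63 were below the minimum for a test, and Muc5ac, called lower, rested on 34 counts. The summed level of the 8 ran from 31.2 to 217 CPM in normoxia, with a median of 59.2. In hyperoxia it ran from 7.23 to 122 CPM, with a median of 76. Reg3g, the most abundant of them in hyperoxia, was at 0.77 and did not pass. By comparison the summed level of the 59 members ran from 1210 to 1500 CPM in normoxia and from 1070 to 1270 CPM in hyperoxia.

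**Figure D4:**
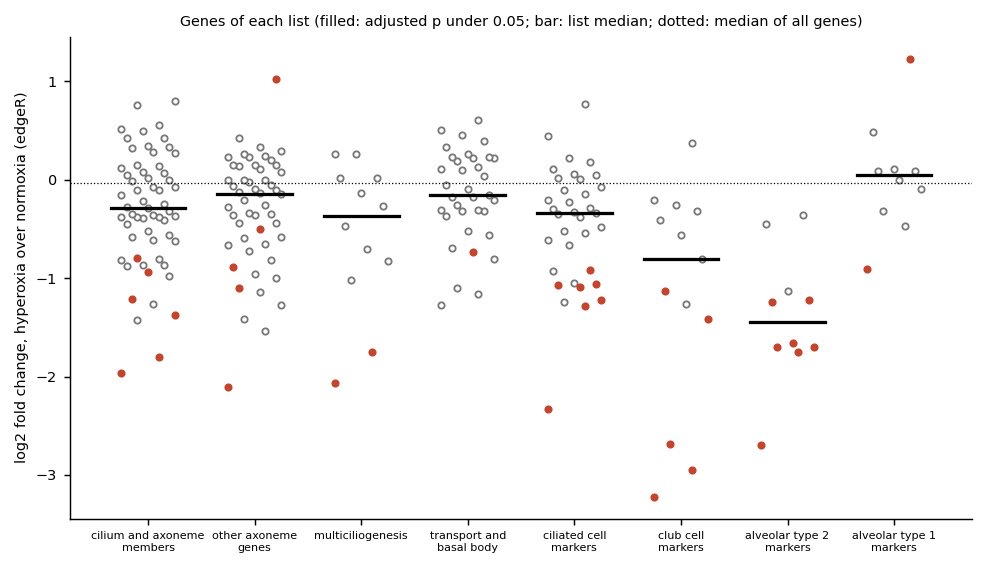
Log2 fold change, hyperoxia over normoxia, of each tested gene in the members and in 7 lists (horizontal axis); filled points passed the test, bars are list medians and the dotted line is the median of all genes, −0.03. The members' median is −0.29, that of the club cell markers −0.81 and that of the alveolar type 2 markers −1.45.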

How the data were processed

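RNA of 13 mouse lung samples was sequenced with the Lexogen QuantSeq kit. Per the labels and the methods, the authors quantified reads with kallisto in BioJupies and used limma 3.54.2 for their own statistics; the submitters' notes name mm10. They deposited raw counts per gene symbol, with no low-count filter, and log10 values, which equal log10(CPM + 1) to within 4.4e-16. No columns were left unmapped. Counts were TMM scaled and tested in R 4.3.3 with the quasi-likelihood functions glmQLFit and glmQLFTest of edgeR 4.0.16, at a minimum of 30 counts over all libraries, with Benjamini-Hochberg adjustment over 14902 genes and a threshold of 0.05. Standard errors came from the log2 fold change and F. CPM values are TMM scaled, and log2 CPM has a prior count of 2.

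The members, the gene lists and the roles were chosen with earlier results of these data known. Genes with full values are the 6 taken by whole symbol, the 2 with the highest mean CPM in each family, and members past the test; from the other lists, up to 4 past the test and the most abundant ones. Cfap74 and Cfap20 without Hyperoxia 1, the intermediate chains, Iqcd and Glo1 were chosen after their values were seen. Alternatives were DESeq2 1.42.0, library size alone, limma-voom (limma 3.58.1) and limma on the log10 values the authors deposited, turned into log2, other filters, the letter set as a term or taken apart, the replicate number as a block, a prior count of 0.5, each library left out, and a length and GC correction added after seeing the data. The fits were tested on simulated data. Libraries with the same replicate number did not deviate together, and whether the numbers pair samples by design is not given in the labels. The closest pair of libraries within a group, of 36, differed by a chi-square of 3.95 per gene, more than sampling noise. Positions are from GENCODE M21, matched by symbol. Intervals from counts cover the spread between libraries, and without molecular identifiers a count is not a molecule.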

Additional observations from a re-analysis of the deposited data

Results flagged for a closer look

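In 4 of 42 groups examined (21 genes or sums in both conditions), the most extreme library lay further from its neighbour than Dixon's 95% critical value allows, where chance flags about 1 in 20 groups, or 2.1. Foxj1 in Hyperoxia 1 was at 2.22 CPM with the nearest hyperoxic library at 42.0 CPM, a gap of 0.787 of the group's log2 range. Dnaaf1 in the same library was at 43.4 CPM against 13.8 CPM for the next, a gap of 0.803. Tekt4 in Hyperoxia 1 had 0 counts against 1.78 CPM for the next, a gap of 0.686. Tppp3 in Normoxia 6 was at 11.3 CPM against 55.0 CPM for the next, a gap of 0.666. Thus 3 of the 4 flags fell in Hyperoxia 1, the library that also stood apart over all genes.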

How the results depend on the processing

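The count of members higher in hyperoxia was 0 under every alternative run. The count of members lower, 6, was 3 with at least 10 counts in every library, where only 33 members were tested and 13.6% of all genes were lower. Within libraries B to M it was 2, beside 2.76% of all genes, and 3 to 9 when 1 library was left out, beside 7.04% to 11.7%. It was 7 with DESeq2, with library size alone, with limma on the deposited values and with the length and GC correction, beside 11.1%, 11%, 12.5% and 9.57% of all genes in turn. The count of other axoneme genes past the test was 5, where 2890 genes were called. It was 8 with DESeq2 (3458 genes), 8 with library size alone (2825), 1 within libraries B to M (1087) and 3 within libraries O to S (2715). When 1 library was left out it was 3 to 9, beside 2361 to 3695 genes called. Fewer genes or libraries entered some of these fits, and the causes of the changes were not tested. The median of the members stayed between −0.41 and −0.22. Dnah8 passed in every alternative run for it, Rsph1 in all but libraries B to M, and Tppp3 in all but the replicate block and libraries O to S. Dnah10 lost its call without the filter (edgeR adjusted p = 0.0612), with the letter set as a term (0.0696) and with the length and GC correction (0.0622). No called member changed sign.

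With the replicate number as a block 2 members were lower (Dnah8 and Rsph1), 0 other axoneme genes passed, and 1301 genes were called in place of 2890. Libraries with the same number did not deviate together (r from −0.26 to 0.20). These values cannot show whether the numbers pair samples by design, which the labels do not say. A count was worth 0.215 to 0.603 CPM, and whether depth limited the calls of members was not tested.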
